A study of Homo sapiens with 54 samples.

Results

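Chromatin immunoprecipitation with sequencing (ChIP-seq) was done with 8 antibodies in T47D cells, and the chromatin around the keratin genes that separate luminal from basal breast epithelium is described here. The luminal genes are KRT7, KRT8, KRT18 and KRT19, and the basal genes are KRT5, KRT6A, KRT14 and KRT17. These 8 genes, of 20037 protein-coding genes in the RefSeq annotation of GRCh38, were chosen by name. They and the gene lists set beside them were chosen with earlier results of these data known. A peak was assigned to a gene when it lay over the gene's span or within 20 kb of either end, which took 552 of the 518593 peaks on chromosomes 1 to 22, X and Y.

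T47D is an established human breast cancer line that expresses the oestrogen and progesterone receptors. The control group received ethanol, the vehicle, for 1 h, and the treated group received R5020, a synthetic progestin, for 1 h; no genetic change separates the groups. The antibodies recognised the progesterone receptor (PR), histone H3 acetylated at lysine 27 (H3K27Ac, a mark of active promoters and enhancers), Maf1 (a repressor of RNA polymerase III), POLR3A, POLR3C, POLR3G and POLR3GL (subunits of that polymerase) and Brf1 (its initiation factor). There were 3 libraries for each antibody and treatment, 48 in all with 6 input libraries beside them, and 1 peak list was deposited for each antibody and treatment. Each of the 16 lists stands for 3 libraries, so the values carry no error between replicates, and no difference between treatments or between genes could be tested.

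Keratins form the intermediate filaments of epithelial cells, and each filament pairs a type I with a type II keratin. In breast epithelium the luminal cells that line the ducts are known for KRT8, KRT18, KRT19 and KRT7, whereas the outer, basal cells are known for KRT5, KRT14 and KRT17. KRT5 pairs with KRT14 in basal cells, KRT8 pairs with KRT18 in luminal cells, and KRT6A belongs to wounded or proliferating epithelium. Progestins are known to enlarge a minority of KRT5-positive cells in luminal breast cancer lines.

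The type II genes lie on chromosome 12: KRT7 at chr12:52233243-52255853, KRT6A at chr12:52487176-52493257, KRT5 at chr12:52514575-52520394 and KRT8 at chr12:52897191-52949860 (GRCh38). KRT18, although type I, is at chr12:52948855-52952906, where its span overlaps that of KRT8. The values of KRT8 and KRT18 are therefore not separate: all 18 vehicle and all 15 R5020 H3K27Ac peaks of KRT18 also counted for KRT8, as did 14 of its 15 R5020 PR peaks. The other type I genes lie on chromosome 17, with KRT19 at chr17:41523617-41528308, KRT14 at chr17:41582279-41586895 and KRT17 at chr17:41619442-41624575. KRT5 and KRT6A are 21317 bp apart, so a peak between them can count for both, as can a peak between KRT14 and KRT17, which are 32546 bp apart. Other keratin genes lie within 20 kb of some members: KRT86 near KRT7, KRT15 and KRT13 near KRT19, KRT6C near KRT6A, KRT9 near KRT14 and KRT16 near KRT17. KRT6A has near-identical copies in its cluster, and KRT14, KRT16 and KRT17 have close copies elsewhere on chromosome 17, so the placement of reads over these spans is uncertain.

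RefSeq promoter sequence, from 250 bases before to 50 bases after the annotated start, was at hand for KRT5 and KRT8, a type II keratin of each class. The KRT5 start lies at the upper end of its span, but the KRT8 start used lies well inside the KRT8 span, so these are not promoters at matched places. The KRT5 sequence (chr12:52520345-52520644, minus strand, GRCh38.p14) lay in chromatin with no vehicle peak of any antibody within 20 kb, and the KRT8 sequence (chr12:52926420-52926719, minus strand, GRCh38.p14) lay inside a vehicle H3K27Ac peak. Capitals mark TGTTCT, the half-site of the hormone response element, searched on both strands.
KRT5: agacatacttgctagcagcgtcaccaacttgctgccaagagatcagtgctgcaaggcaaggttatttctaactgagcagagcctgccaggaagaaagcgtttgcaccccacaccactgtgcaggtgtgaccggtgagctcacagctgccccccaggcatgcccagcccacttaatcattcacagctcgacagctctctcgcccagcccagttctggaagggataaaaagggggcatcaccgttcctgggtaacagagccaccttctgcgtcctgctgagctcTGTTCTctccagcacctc
KRT8: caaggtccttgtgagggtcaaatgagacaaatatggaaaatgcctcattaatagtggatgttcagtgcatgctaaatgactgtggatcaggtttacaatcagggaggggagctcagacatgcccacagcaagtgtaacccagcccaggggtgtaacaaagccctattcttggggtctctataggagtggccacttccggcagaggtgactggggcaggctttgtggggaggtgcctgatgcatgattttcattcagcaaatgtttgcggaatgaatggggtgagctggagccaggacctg

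The KRT5 sequence held 1 half-site, at position 283 from its 5′ end and so after the annotated start, and the KRT8 sequence held none. Of 35116 RefSeq promoters of this length, 14.8% held the half-site. Neither sequence held the other motifs searched on both strands: the palindromic hormone response element, with its half-sites inverted around a short spacer (0.390% of promoters), the AP-1 motif TGANTCA (7.71%), the AP-2 motif GCCNNNGGC (23.2%), the GC box GGGCGG (45.0%), the TATA box TATAAA (11.5%) and the GATA motif AGATAA (10.3%). The GC content was 56.3% for KRT5 and 50.7% for KRT8, against a median of 58.7% over all promoters. The R5020 PR peak nearest to the KRT5 sequence was 37 bp away (chr12:52520681-52520831), with a fold enrichment of 3.42 over the peak caller's background. It lay beyond the 5′ end of the sequence, away from the half-site, and no R5020 PR peak overlapped the KRT5 sequence. The R5020 PR peak nearest to the KRT8 sequence was also 37 bp away (chr12:52925727-52926383), with a fold of 11.5. H3K27Ac peaks lay at unlike distances from these sequences. With vehicle the nearest H3K27Ac peak was 95816 bp from the KRT5 sequence, and with R5020 it was 889 bp away, while a vehicle H3K27Ac peak (chr12:52923925-52929056, fold 7.52) covered all 300 bases of the KRT8 sequence. With R5020 a narrower H3K27Ac peak (chr12:52925310-52926614, fold 6.18) covered 195 of them.

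The labelled cell identity was checked on markers other than keratins. H3K27Ac peaks lay near all 13 luminal markers with vehicle, ESR1, PGR, GATA3 and FOXA1 among them, and covered a median of 32.8% of each gene and its 20 kb surroundings. They lay near 12 of 14 basal or myoepithelial markers and near 8 of 9 markers of immune, endothelial and stromal cells, where they covered medians of 3.99% and 1.87%. The presence of a peak thus hardly separated the marker lists, while coverage did. Over all genes 82.5% had an H3K27Ac peak within 20 kb with vehicle and 83.0% with R5020, and the median coverage with vehicle was 4.26%.

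The keratin genes followed the same division. With vehicle KRT19 was covered over 90.7% of its surroundings, more than 99.985% of all genes and behind only PARD6B and its own neighbour KRT15. KRT8 was covered over 61.0%, KRT7 over 59.6% and KRT18 over 59.6%, and the lowest of these was above 99.2% of all genes. Among the basal genes, KRT17 was covered over 16.0%, KRT14 over 5.06%, and KRT5 and KRT6A over none. KRT14 and KRT17 therefore stood above the median of all genes, with KRT14 near it, and KRT5 and KRT6A were among the 3509 genes with no vehicle H3K27Ac peak within 20 kb.

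The luminal genes carried some of the widest H3K27Ac peaks of the vehicle list. The whole of KRT7's lower end and most of its span lay in a single peak of 20970 bp (chr12:52230441-52251410, fold 17.9), and 36 of 88870 vehicle peaks were wider. A peak of 10428 bp (chr12:52943273-52953700, fold 18.8) covered KRT18 and the upper end of KRT8. KRT19 lay within a peak of 15188 bp (chr17:41516252-41531439, fold 15.2). Peaks of at least 10 kb numbered 6 near the luminal genes and 287 in the whole list, and none lay near a basal gene. At KRT14 the strongest vehicle peak (chr17:41578485-41579680, fold 10.2) lay 2599 bp below the span, where no peak covered the gene itself. KRT17 had 13 vehicle peaks of lower fold, 3 of them over its span.

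With R5020 the H3K27Ac coverage was lower at 3 luminal genes and higher at the fourth, while at all 4 basal genes it was higher by a small amount. KRT7 was covered over 51.9%, KRT8 over 48.9% and KRT18 over 48.2%. KRT19 was covered over 92.2%. Coverage was 16.4% at KRT17, 7.07% at KRT14, 1.27% at KRT5 and 0.469% at KRT6A. Over all genes coverage was lower after R5020 at 45.1% and higher at 39.5%, with a median difference of 0 percentage points, so either direction alone is common. The median difference was -9.59 points over the luminal keratin genes and -2.14 points over the 13 luminal markers, of which 10 were lower.

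**Figure D1:**
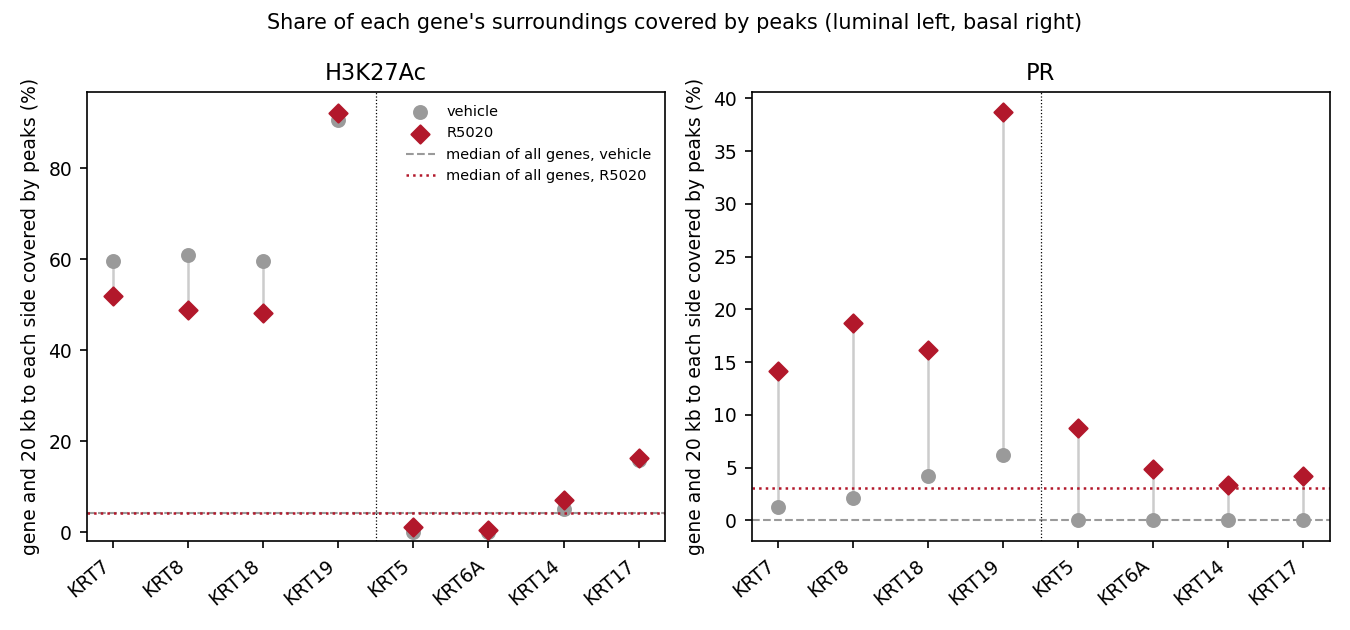
Percentage of each gene and its 20 kb surroundings covered by H3K27Ac peaks (left panel) and PR peaks (right panel), with vehicle as grey circles and R5020 as red diamonds; each point is 1 list, and dashed and dotted lines are the medians of all 20037 genes. The luminal genes sit between 48.2% and 92.2% for H3K27Ac and the basal genes at or below 16.4%, and for PR after R5020 KRT19 reaches 38.7%.

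The broad peaks were cut differently in the R5020 list. KRT7's vehicle peak was met by 6 R5020 peaks that together covered 94.2% of it, and the widest R5020 peak near KRT7 was 8157 bp. At KRT19 a single R5020 peak of 24078 bp (chr17:41518019-41542096, fold 23.9) reached over 2 vehicle peaks, of 15188 and 11643 bp, each of which was also met by narrower R5020 peaks, and 17 of 112543 R5020 peaks were wider. The peak over KRT18 was 10428 bp with vehicle and 8458 bp with R5020 (chr12:52944300-52952757), with a fold of 14.6. Counted as peaks, H3K27Ac numbered 24 with vehicle and 27 with R5020 at KRT7, 41 and 41 at KRT8, 18 and 15 at KRT18, and 9 and 12 at KRT19. A wide peak counts once, so KRT19 had the fewest peaks of the luminal genes and the highest coverage.

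Near the basal genes H3K27Ac peaks were more numerous with R5020 at each gene: none and 2 at KRT5, none and 1 at KRT6A, 3 and 7 at KRT14, and 13 and 19 at KRT17. Together the basal genes had 16 peaks with vehicle and 28 with R5020, but 7 and 7 at a −log10 q of at least 5, and 2 and 1 at a fold of at least 5, where the order was reversed. The R5020 list was the longer of the pair, and 48.3% of all genes had more H3K27Ac peaks with R5020. KRT5 and KRT6A had an H3K27Ac peak with R5020 and none with vehicle, which was so for 2.16% of all genes. The 2 peaks were small. The first (chr12:52521533-52521899, fold 4.15, −log10 q 6.30) lay 1139 bp above the KRT5 span, on the promoter side, and the second (chr12:52507931-52508146, fold 3.27, −log10 q 3.44) lay 6429 bp below KRT5 and 14674 bp above KRT6A, counting for both. Both overlapped an R5020 PR peak. When each H3K27Ac list was restricted to equal numbers of its top peaks both genes kept their H3K27Ac peaks, KRT5 kept 1 at a −log10 q of at least 5 and KRT6A none, and neither kept any at a fold of at least 5.

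PR is a ligand-activated transcription factor, and its list was far longer with R5020, with 173129 peaks against 6663. With vehicle, 28.0% of all genes had a PR peak within 20 kb, and all 4 luminal and none of the 4 basal keratin genes did. The counts were 8 at KRT19, 6 at KRT8, 3 at KRT18 and 2 at KRT7, and KRT19's count exceeded that of 99.8% of all genes. With R5020, 93.7% of all genes had a PR peak and 65.8% gained their first; all 8 keratin genes had peaks and the 4 basal genes were among the 65.8%. The presence of a PR peak near a basal gene after R5020 is thus at the background of all genes. KRT8 then had 35 peaks, KRT19 had 23, KRT7 had 22 and KRT18 had 15. KRT5 had 9, KRT14 and KRT17 had 5 each and KRT6A had 4, around the median of 6 over all genes. Windows were not of equal length, since the KRT8 span is long: KRT8's window was 92670 bp, KRT7's 62611 bp, and the other 6 were between 44052 and 46082 bp.

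**Figure D2:**
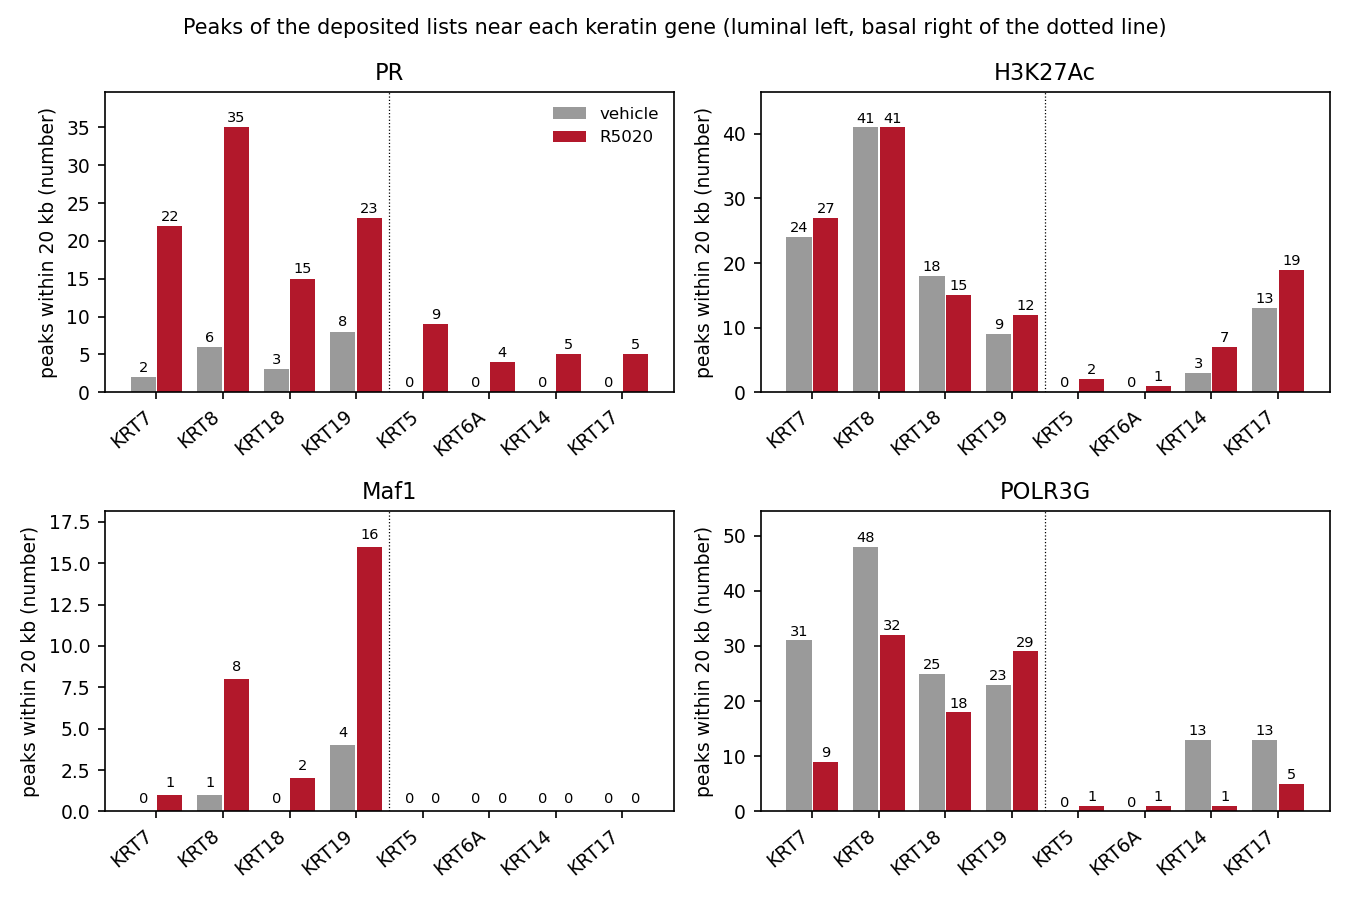
Number of peaks within 20 kb of each gene in the lists of PR, H3K27Ac, Maf1 and POLR3G, with vehicle in grey and R5020 in red; each bar is 1 list and has no error. The basal genes, right of the dotted line, have no PR peak with vehicle and 4 to 9 with R5020, and no Maf1 peak in either list.

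Coverage by PR peaks, which allows for window length, put KRT19 apart. With R5020 its PR peaks covered 38.7% of the window, the highest value of all 20037 genes, followed by its neighbour KRT15 with 36.8% and by TOB1 with 32.7%. KRT8 was covered over 18.7%, KRT18 over 16.2% and KRT7 over 14.1%, and KRT7's value was above 97.8% of all genes. KRT5 was covered over 8.78%, KRT6A over 4.87%, KRT17 over 4.23% and KRT14 over 3.38%, where the median of all genes was 3.06%. The order of KRT6A, KRT17 and KRT14 has no error to be read against.

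Named PR peaks at KRT19 show how the 2 lists relate. With vehicle the strongest lay 7519 bp above the span (chr17:41535827-41536463, fold 19.9, −log10 q 133), above 98.4% of the vehicle list. A weaker peak lay over the upper end of the span (chr17:41528141-41528460, fold 5.97), and with R5020 the peak there had a fold of 25.8. With R5020 the peak of highest −log10 q was chr17:41538646-41539982 (fold 37.9, −log10 q 357) and the peak of highest fold, 47.8, crossed the lower end of the span (chr17:41521512-41524056). All 8 vehicle PR peaks of KRT19 overlapped an R5020 peak, as did all 17 vehicle PR peaks of the luminal genes together, against 91.6% of the whole vehicle list.

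At KRT18 the strongest PR peak was also shared by treatments. It lay at chr12:52971776-52972400 with vehicle (fold 11.9), 18870 bp above the span, and at chr12:52971521-52972497 with R5020 (fold 31.1). A vehicle PR peak also started at the lower end of KRT18 (chr12:52948856-52949358, fold 5.24). At KRT8 the strongest R5020 peak ended 66 bp below the span (chr12:52895066-52897125, fold 30.5) and overlay a vehicle peak of fold 3.98. At KRT7 the R5020 peak of highest −log10 q lay within the gene (chr12:52246576-52247733, fold 19.5) over a vehicle peak of fold 4.33, and the peak of highest fold (chr12:52239796-52240210, fold 20.6), also within the gene, met no vehicle PR peak. Fold values come from separate lists and were not compared between treatments.

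KRT5 and KRT6A shared the strongest PR peak of the basal genes (chr12:52506975-52507626, fold 32.8, −log10 q 244). It lay 6949 bp below the KRT5 span, on the side away from its promoter, and 13718 bp above KRT6A, and its fold was above 95.5% of the R5020 list. It met no H3K27Ac peak of either list. KRT5 also had 3 PR peaks within its span, the strongest of fold 15.1 (chr12:52518520-52519186), and a peak of fold 10.5 that lay 886 bp above it (chr12:52521280-52521571). KRT6A had 1 weak peak over its span (chr12:52491531-52491782, fold 3.59), where near-identical copies make read placement uncertain. KRT17's strongest peak (chr17:41628629-41629324, fold 15.0) lay 4054 bp above the span, and KRT14's (chr17:41602419-41602928, fold 6.05) lay 15524 bp above KRT14 and counted for KRT17 too.

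**Figure D3:**
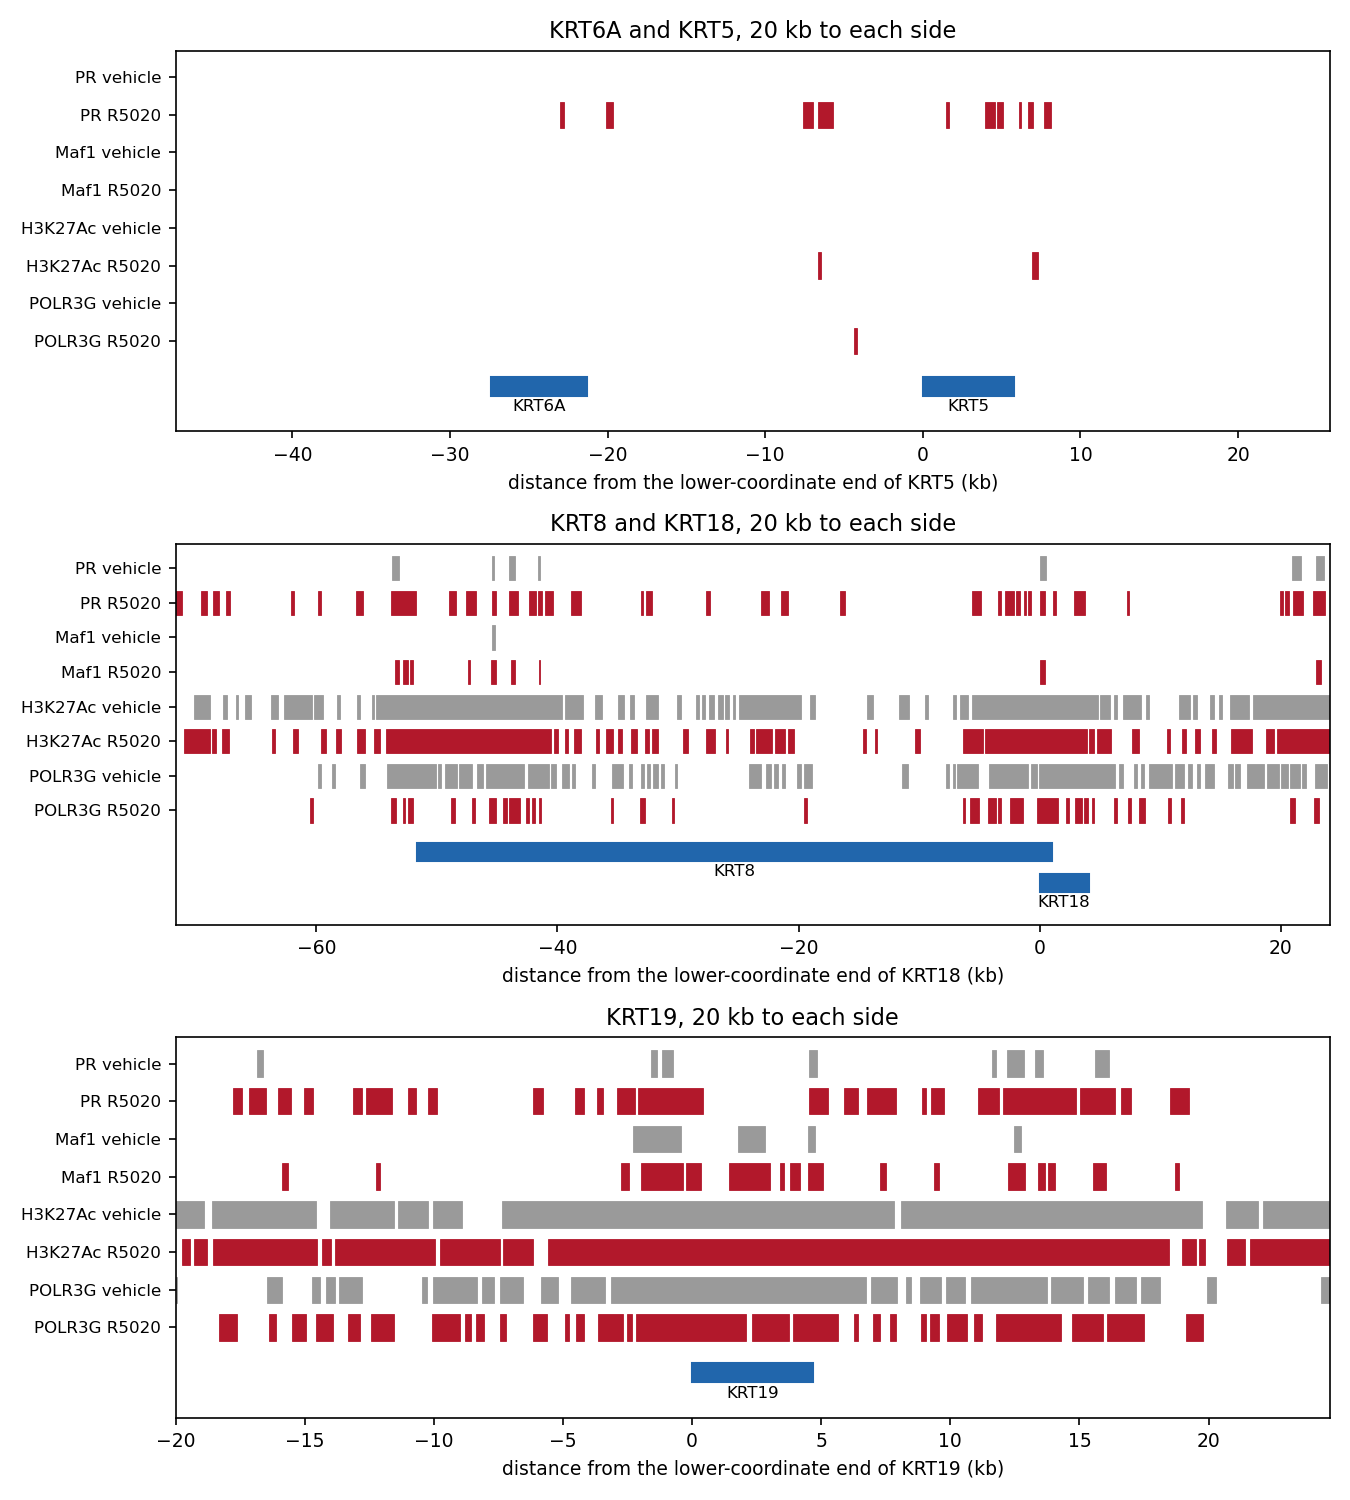
Positions of peaks around KRT6A and KRT5 (top), KRT8 and KRT18 (middle) and KRT19 (bottom), as distance in kb from the lower-coordinate end of KRT5, KRT18 or KRT19, with 1 line per antibody and treatment, vehicle peaks in grey, R5020 peaks in red and gene spans in blue. Around KRT5 and KRT6A every peak is red, with 10 PR peaks, 2 H3K27Ac peaks and 1 POLR3G peak, whereas around KRT8, KRT18 and KRT19 both treatments fill the H3K27Ac lines.

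Within the R5020 list, fold enrichment was higher for the luminal than for the basal PR peaks. The 81 luminal peaks had a median fold of 10.0 and the 19 basal peaks a median of 5.79, beside 5.90 for the whole list. A fold of at least 5 was reached by 60 of the luminal and 12 of the basal peaks. The top 10% of the list by fold held 14 luminal peaks and 1 basal peak, the one between KRT6A and KRT5. By gene the median fold was 17.6 at KRT19, 8.40 at KRT7, 8.12 at KRT8, 7.82 at KRT6A, 7.08 at KRT18, 6.84 at KRT17, 6.02 at KRT5 and 5.29 at KRT14. The classes thus overlapped by gene, and KRT19 stood above the other 7. With only the 6663 peaks of highest −log10 q kept from the R5020 list, to match the vehicle list, 4 luminal and no basal peaks remained, and all 4 were at KRT19, so that KRT7, KRT8 and KRT18 had 0 like the basal genes.

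**Figure D4:**
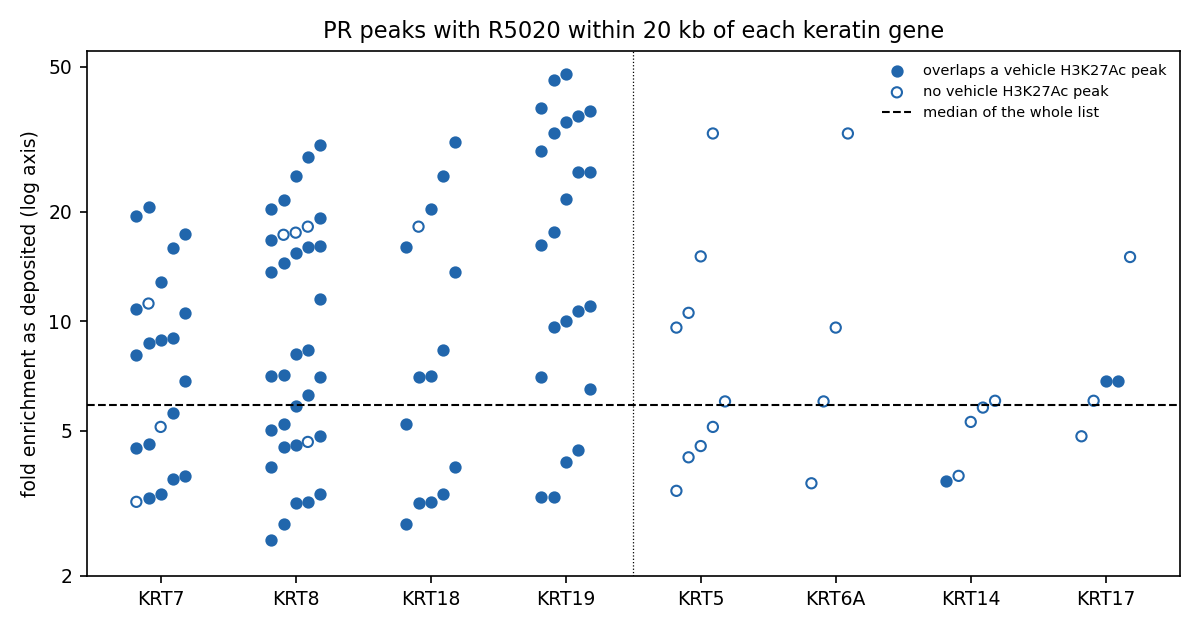
Deposited fold enrichment, on a log axis, of each R5020 PR peak within 20 kb of each gene, filled where it overlaps a vehicle H3K27Ac peak; a peak near 2 genes appears at both, and the dashed line is the whole list's median of 5.90. Points at KRT19 are all filled, and those at KRT5 and KRT6A, with no vehicle H3K27Ac peak within 20 kb, are all open.

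R5020 PR peaks near luminal genes lay mostly where H3K27Ac was already present with vehicle, and those near basal genes mostly did not. Of the 81 luminal peaks, 74 overlapped a vehicle H3K27Ac peak by at least 1 bp (91.4%, 95% Wilson interval 83.2 to 95.8), and of the 19 basal peaks, 3 did (15.8%, 5.52 to 37.6). The share over the whole list was 26.0%, which lies within the basal interval. By gene it was 23 of 23 at KRT19, 14 of 15 at KRT18, 31 of 35 at KRT8 and 19 of 22 at KRT7. For the basal genes it was 2 of 5 at KRT17, 1 of 5 at KRT14, 0 of 4 at KRT6A and 0 of 9 at KRT5. KRT5 and KRT6A had no vehicle H3K27Ac peak within 20 kb, so no overlap was possible at either gene. With the R5020 H3K27Ac list in place of the vehicle list, 69 of 81 luminal peaks (85.2%, 75.9 to 91.3) overlapped. So did 5 of 19 basal peaks (26.3%, 11.8 to 48.8), beside 28.7% of the whole list. These intervals cover counting error only, and neighbouring peaks are not independent. Coverage by H3K27Ac, given above, differed between the classes in the same direction, and its part in these shares was not tested.

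All 4 basal genes had PR peaks with R5020, and 2 of them, KRT5 and KRT6A, had them with no vehicle H3K27Ac peak within 20 kb. That combination held for 12.1% of all genes, for none of the 4 luminal keratin genes and for 13 of 30 other epithelial keratin genes. It held for none of 17 hair keratin genes and none of 11 desmosome and plakin genes, which anchor keratin filaments. Among basal markers other than keratins it held for 2 of 14, SERPINB5 and SNAI2.

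Most vehicle H3K27Ac peaks were met again with R5020 in both classes. Near luminal genes 52 of 74 (70.3%) overlapped an R5020 peak, near basal genes 13 of 16 (81.3%), and over the whole list 67.2%. In the other direction 72 of 80 luminal R5020 peaks and 13 of 28 basal ones overlapped a vehicle peak, beside 58.3% of the whole list.

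Maf1 had peaks near the luminal keratin genes and none near the basal ones. With vehicle it had 4 peaks at KRT19 and 1 at KRT8, and with R5020 it had 16 at KRT19, 8 at KRT8, 2 at KRT18 and 1 at KRT7. The Maf1 list was longer with R5020, with 22683 peaks against 3049. With equal numbers of top peaks, R5020 Maf1 had 4 peaks at KRT19 and 0 at KRT7, KRT8 and KRT18. No basal keratin gene had a Maf1 peak in either list, where 19.2% of all genes had one with vehicle, 60.0% with R5020 and 41.0% with R5020 alone. With 4 genes, a count of 0 has a Wilson upper bound of 49.0% of genes. That bound takes the 4 genes as independent, but the windows of KRT5 and KRT6A overlap, as do those of KRT14 and KRT17. The nearest Maf1 peak to the KRT5 promoter sequence was 102270 bp away with R5020, and between 20 and 30 kb of a basal gene there was 1 Maf1 peak. KRT19's 16 peaks exceeded the count of 99.7% of all genes. The strongest (chr17:41521652-41523256, fold 15.4) lay 361 bp below the span, inside the PR peak of highest fold. A Maf1 peak over the body of the gene (chr17:41525398-41526449 with vehicle, fold 6.49, and chr17:41525037-41526635 with R5020, fold 5.53) met no R5020 PR peak. Of the 26 luminal Maf1 peaks with R5020, 23 overlapped an R5020 PR peak (88.5%, 71.0 to 96.0), close to the 82.1% of the whole list. At KRT8 and KRT18 all folds were below 5.

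POLR3G was the only polymerase III antibody with peaks near the keratin genes. Within 20 kb, 60.6% of all genes had a POLR3G peak with vehicle and 55.4% with R5020. KRT8 had 48 with vehicle and 32 with R5020, and the counts were 31 and 9 at KRT7, 25 and 18 at KRT18, and 23 and 29 at KRT19. They were 13 and 5 at KRT17, 13 and 1 at KRT14, and none and 1 at KRT5 and at KRT6A, which shared that peak (chr12:52510197-52510413, fold 2.66). Fewer peaks with R5020 were seen at 5 of the 8 genes, beside 37.3% of all genes. The R5020 POLR3G list was the shorter of the pair, with 46875 peaks against 58424. With equal numbers of top peaks the luminal genes together had 82 with vehicle and 71 with R5020, and the basal genes 19 and 7. At a −log10 q of at least 5 the luminal genes together had 29 POLR3G peaks with vehicle and 19 with R5020, in place of 104 and 71, and the basal genes 1 and 0, in place of 24 and 7. Counting only peaks whose nearest gene was a member, the basal genes had 13 and 4. Coverage by POLR3G at KRT7 was 29.7% with vehicle and 4.06% with R5020. It was 44.7% and 14.0% at KRT8, 55.6% and 19.2% at KRT18, and 60.9% and 51.9% at KRT19. Lower coverage with R5020 was thus seen at all 4 luminal and at 2 of 4 basal genes, beside 50.4% of all genes. Of the vehicle POLR3G peaks, 93 of 104 luminal (89.4%) and 6 of 24 basal (25.0%) overlapped a vehicle H3K27Ac peak, beside 53.6% of the whole list. Folds were low throughout, with a maximum of 5.99 near the members, over KRT19 (chr17:41520465-41530357), and of 5.72 over KRT18 (chr12:52948811-52955103). The treatment tag of 1 of the 3 POLR3G libraries titled R5020 says ethanol, and the values for R5020 rest on the titles.

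The other 8 lists had no peak within 20 kb of any of the 8 genes. The share of all genes with a peak was small in each: 2.21% with vehicle and 2.39% with R5020 for POLR3A, 3.61% and 3.72% for POLR3C, 1.67% and 1.24% for POLR3GL, and 1.31% and 3.61% for Brf1. A count of 0 of 8 genes is near these backgrounds. Tags that say ethanol also occur on 2 of 3 POLR3C libraries and 1 of 3 POLR3GL libraries titled R5020.

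Peaks just inside and just outside the 20 kb limit were counted in bands of 10 kb. For R5020 PR, 55 luminal peaks lay within 10 kb, 26 between 10 and 20 kb and 18 between 20 and 30 kb, and the basal counts were 16, 3 and 7. For vehicle PR the luminal counts were 12, 5 and 1, and no basal peak lay within 30 kb. For vehicle H3K27Ac they were 50, 24 and 19 near luminal genes and 14, 2 and 7 near basal genes.

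Genes whose peak counts over the 16 lists were most like a member's were sought among the fixed lists, more than 100 kb from every member, by the sum of absolute differences. For KRT19 they were XBP1, MUC1 and SPDEF, with sums of 39, 40 and 44, and KRT19 had 124 peaks in all. KRT8 (212 peaks) was nearest to SPDEF, JUP and EVPL, with sums of 76 to 95, KRT18 (96 peaks) to ELF3, TAGLN and DSP, with 27 to 29, and KRT7 (116 peaks) to COL1A1, JUP and CDH1, with 36 to 41. KRT5, with 12 peaks, was nearest to DSG2, PTPRC and KRT2, with 3 to 6, and KRT6A, with 6 peaks, to KRT1, KRT27 and KRT25, with 3 to 4. KRT14 (29 peaks) was nearest to CNN1, MYH11 and KRT12, with 15 to 16. The genes nearest to KRT19 were thus all luminal markers. By contrast, the nearest genes of KRT18 included a basal marker, TAGLN, those of KRT7 a stromal marker and those of KRT5 an immune marker. Small sums go with few peaks, so they were not compared between members.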

How the data were processed

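T47D chromatin was profiled with 8 antibodies after 1 h of vehicle or R5020, and libraries were grouped by their titles. Reads were trimmed, aligned and peaks called with cutadapt, Bowtie2 and MACS2 on hg38, per the submitters' processing notes, which give no versions. How the 3 replicates became 1 list, the control library and the cut-offs are not given in the sources used here. The authors' deposited values per peak are a ratio of signal to the caller's background (the fold) and the −log10 of q, and they served to describe and filter peaks inside 1 list. Sequencing depth is unknown, so a longer list cannot be told apart from deeper libraries.

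Genes came from the RefSeq table of GRCh38.p14, which gives spans without strand or exons. Peaks within 20 kb of a span were counted, and the bases they cover were divided by the window length. Overlap meant at least 1 bp, and intervals are Wilson 95%. Window counts were tested on simulated data. The named genes are the 8 members, keratin genes within 20 kb of them, and the 3 genes of fixed lists most like each (those for KRT17 are not reported here); the luminal markers ESR1, PGR, GATA3 and FOXA1 were named as examples outside this rule, and PARD6B, KRT15, TOB1, SERPINB5 and SNAI2 were named after their values were seen, as were the analyses of broad peaks and coverage differences. Members and gene lists were chosen with earlier results of these data known. The alternatives were 10 kb, a −log10 q or fold of at least 5, equal numbers of top peaks, sharing of 50% of both peaks, and peaks whose nearest gene is a member. Promoter sequence for the other 6 members was not used here. Python 3.11.15, numpy 2.4.6, pandas 2.3.3, scipy 1.17.1 and matplotlib 3.10.9 were used.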

Additional observations from a re-analysis of the deposited data

How the results depend on the processing

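Of 100 alternative values, 59 stayed within 1.5 times the value reported and 41 did not. The 59 include counts of 0, which a stricter limit cannot change. They also include counts from the shorter list of a pair, which equal numbers of top peaks leave unchanged by construction. For POLR3G at a fold of at least 5, 3 luminal peaks with vehicle and 2 with R5020 were left, and 0 basal peaks. Vehicle Maf1 peaks near luminal genes numbered 3 at that fold. No paired analysis was possible because each antibody and treatment has 1 list with no replicate number, and for the same reason no replicate could be left out. With a fold of at least 5, PR peaks numbered 6 near luminal genes with vehicle and 12 near basal genes with R5020, Maf1 peaks near luminal genes with R5020 numbered 9, and H3K27Ac peaks numbered 17 luminal and 2 basal with vehicle and 23 and 1 with R5020, which reversed the order of treatments near basal genes. With a −log10 q of at least 5, those Maf1 peaks numbered 17, and H3K27Ac peaks 39 and 7 with vehicle and 46 and 7 with R5020, so the basal difference in H3K27Ac between treatments was no longer seen. With equal numbers of top peaks, R5020 PR peaks numbered 4 luminal and 0 basal and R5020 Maf1 peaks 4. Within 10 kb, R5020 H3K27Ac peaks near luminal genes numbered 51, and 33 vehicle peaks there were met again. R5020 PR peaks on R5020 H3K27Ac numbered 44 of 60 luminal and 0 of 12 basal at a fold of at least 5, 3 of 19 basal at the q limit, 4 of 4 luminal and 0 basal with top peaks, and 3 luminal and 0 basal when 50% of both peaks had to be shared. Vehicle H3K27Ac peaks met again numbered 23 of 39 luminal and 4 of 7 basal at the q limit, 15 of 17 and 1 of 2 at the fold limit, and 25 and 8 with 50% shared. Stricter limits leave fewer peaks by construction; any other cause was not tested.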

Other observations

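Beyond the 8 genes, 6 of 30 other epithelial keratin genes had H3K27Ac peaks with R5020 and none with vehicle. These were KRT1, KRT2, KRT6B, KRT72, KRT73 and KRT74, or 20.0% of the list, beside 2.16% of all genes; all 6 are type II, and neighbouring genes share peaks. They were singled out after their values were seen. Within 10 kb there were 7 (KRT2, KRT6B, KRT28, KRT72, KRT73, KRT74 and KRT78), of which KRT28 is type I. With equal numbers of top peaks KRT2, KRT6B and KRT73 remained, at a −log10 q of at least 5 the count was 1, KRT3 in place of these 6, and at a fold of at least 5 it was 0. H3K27Ac peaks lay near all 17 hair keratin genes with vehicle, beside 82.5% of all genes. They covered a median of 25.2% of the surroundings, between the medians of the basal (2.53%) and luminal (60.3%) keratin genes. PR peaks with vehicle lay near 8 of the 17, beside 28.0% of all genes. Neighbouring hair keratin genes share peaks, so these counts are not independent. Hair keratins build the hair shaft and are not markers of breast epithelium.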
